A study of Rattus norvegicus with 8 samples.

Results

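miRNAs of the left medial vestibular nucleus (MVN) were compared between rats with a unilateral labyrinthectomy, the UVD group, and rats with a sham operation, the SO group, 4 h after surgery. Of the 758 rat miRNAs on the array, 406 were detected on both arrays of the UVD group, of the SO group or of both at 4 h, and these 406 make up the comparison. The animals were male Sprague–Dawley rats 7 weeks old, operated on the left side in both groups. In the UVD group the labyrinth, the sense organ of balance in the inner ear, was opened and destroyed with ethanol. In the SO group the ear was approached without opening a semicircular canal and without ethanol, so both groups share anesthesia and surgical injury. Each group had 2 arrays at 4 h, and RNA from the nuclei of 3 rats was pooled for each array, so replicates are pools and not single animals. The groups at 4 d after surgery, with 2 arrays each, serve here for comparison. The 8 arrays lay on 1 slide, the UVD arrays in row 2 and the SO arrays in row 1, so slide row and group cannot be told apart. The arrays at 4 h lay in columns 3 and 4 and those at 4 d in columns 1 and 2, so slide column and time cannot be told apart either.

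The MVN is a nucleus of the caudal brainstem that receives input from the vestibular nerve. Loss of the labyrinth on one side silences neurons of the MVN on that side, and the posture and eye movement deficits that follow wane over days in a process called vestibular compensation. A miRNA is a short RNA that guides the Argonaute protein to messenger RNAs, mainly by pairing of its bases 2 to 8, the seed, and so lowers translation and stability of its targets. miRNAs with the same seed form a family that can bind the same sites, and both arms of a precursor hairpin can give a mature miRNA.

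The sequences of the miRNAs with the largest share in the results are shown first, because the families and near-identical pairs among them decide which values are independent. All are mature miRNAs from RefSeq, placed on the rat assembly GRCr8, in which 371 of the 406 miRNAs were matched by name. The seed is in capitals. The first set holds miR-344b-5p and miR-7a-2-3p, which passed the test, with the other arms of their precursors and the paralog miR-7b.
miR-7a-2-3p: cAACAAGUcccagucugccaca
miR-7a-5p: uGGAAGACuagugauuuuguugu
miR-7b: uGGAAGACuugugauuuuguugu
miR-344b-5p: aGUCAGGCugcugguuauauuc
miR-344b-3p: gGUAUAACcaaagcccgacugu
The second set holds miR-137-3p, miR-153-3p, miR-10b-5p and its near-identical relative miR-10a-5p, all with small p-values, a lower mean in the UVD group and detection on all 4 arrays. It adds miR-153-5p as the other arm of miR-153.
miR-137-3p: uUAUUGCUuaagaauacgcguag
miR-153-3p: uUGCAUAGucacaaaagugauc
miR-153-5p: gUCAUUUUugugauguugcagcu
miR-10a-5p: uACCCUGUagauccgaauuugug
miR-10b-5p: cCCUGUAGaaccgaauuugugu
The third set holds miRNAs whose normalized intensity was higher on both UVD arrays, the ciliated cell pair miR-34b and miR-34c and the muscle pair miR-133a and miR-133b.
miR-34c-5p: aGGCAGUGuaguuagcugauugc
miR-34b-5p: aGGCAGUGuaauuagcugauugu
miR-133a-3p: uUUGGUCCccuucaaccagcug
miR-133b-3p: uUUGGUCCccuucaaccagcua
miR-7a-5p and miR-7b are identical at 22 of 23 bases, with the substitution A10U counted from the 5′ end of miR-7a-5p. miR-10b-5p as listed in RefSeq starts at base 3 of miR-10a-5p, and over the 21 aligned bases the pair differs by U12A. miR-133a-3p and miR-133b-3p differ by G22A at the last base, and miR-34b-5p and miR-34c-5p differ by A11G and U23C. The signals of such pairs may be shared between their probes, so their values are not counted as independent.

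The hairpin of miR-7a-2 carries the miRNA with the smallest p on its 3′ arm and miR-7a-5p on its 5′ arm. It lies at chr1:142215800-142215894 on the plus strand of GRCr8, within the long noncoding RNA gene LOC120099863, and is shown with both arms in capitals.
Mir8 hairpin: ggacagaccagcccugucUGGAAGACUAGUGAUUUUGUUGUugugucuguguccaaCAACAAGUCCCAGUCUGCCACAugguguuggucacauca
A further copy of miR-7a-5p is encoded in Hnrnpk at chr17:6278710-6278732, where its partner on the other arm is miR-7a-1-3p. miR-344b-5p has 3 copies in GRCr8, all on the minus strand of chromosome 1, and the copy Mir344b-2 at chr1:124028505-124028575 also gives miR-344b-3p.
Mir344b-2 hairpin: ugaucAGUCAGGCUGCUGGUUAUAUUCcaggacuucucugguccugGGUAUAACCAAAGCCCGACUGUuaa

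The arrays differed before any comparison of groups. The number of detected miRNAs was 429 and 378 on the UVD arrays and 408 and 415 on the SO arrays, and the lowest detected normalized intensity was 6.15 on replicate 2 of the UVD group but 1.0 to 2.92 on the other 3. Values below 1 were set to 1, called the floor here. At the floor on UVD replicate 2 were all 28 miRNAs that were detected on both SO arrays but not on both UVD arrays. The SO arrays at 4 h stood apart from the other 6 arrays of the series: for 129 of the 406 miRNAs (31.8%) both lay outside the range of the other 6, 77 above it and 52 below it. The same held for 20 miRNAs (4.9%) in the UVD group at 4 h, for 57 (14.0%) in the UVD group at 4 d and for 7 (1.7%) in the SO group at 4 d. Markers of the labeled tissue were bright on all 4 arrays, with normalized intensities of 21950 to 26530 for miR-124-3p, the classic neuronal miRNA, and 26530 to 29050 for miR-219a-5p, which drives oligodendrocyte differentiation. In such bulk RNA, fewer cells of a type and less RNA per cell cannot be told apart.

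**Figure D1:**
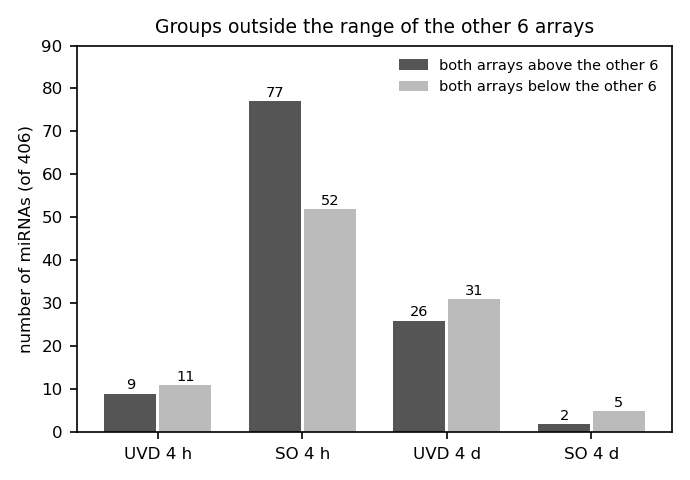
Number of miRNAs, of 406, for which both arrays of a group lay above (dark bars) or below (light bars) all of the other 6 arrays. The SO group at 4 h has 77 and 52 such miRNAs, against 9 and 11 in the UVD group at 4 h.

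At 4 h, miR-7a-2-3p was lower after UVD than after SO and passed the test, whereas no miRNA with a higher mean after UVD did. miR-344b-5p passed as well, but it was tested only because both SO arrays at 4 h detected it, and both of its UVD values were the floor. These 2 miRNAs were all that passed limma at an adjusted p under 0.05, which is 0.474% of the 422 miRNAs tested. An unadjusted p under 0.05 was reached by 72 members (17.1% of those tested), of which 24 had a higher (5.69%) and 48 a lower mean (11.4%) in the UVD group. The arrays of the groups did not overlap for 215 of the 406 members (50.9% of those tested), 95 with both UVD arrays higher (22.5%) and 120 with both lower (28.4%). With 2 arrays against 2, an exact permutation test of a single miRNA cannot give a two-sided p below 0.333. Typical differences were small: the median size of the log2 difference between groups was 0.14, beside 0.10 between the UVD arrays and 0.09 between the SO arrays. The split into higher and lower depended on scaling, with 213 higher and 63 lower without overlap when arrays were scaled to the 75th percentile of miRNAs detected on all arrays, 232 and 55 with that of all miRNAs, and 35 and 161 with no scaling. These scalings moved the median log2 difference of all members from -0.02 to 0.12, 0.14 and -0.12, so group medians below are read against the median of all members.

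**Figure D2:**
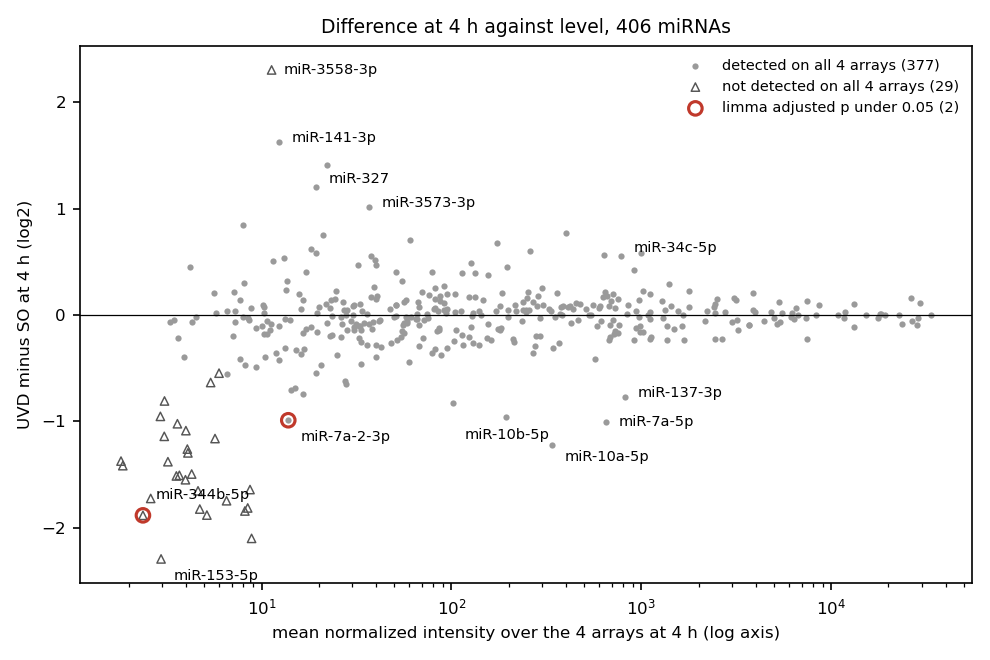
Log2 difference of the UVD group from the SO group at 4 h for 406 miRNAs, against the mean normalized intensity over the 4 arrays (log axis). Circles mark the 2 miRNAs with a limma adjusted p under 0.05; triangles, miRNAs not detected on all 4 arrays, lie with 1 exception, miR-3558-3p, below 0.

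The size of a difference followed the signal. Among the 102 members with the lowest mean intensity, up to 22.1, the median size of the log2 difference was 0.40 and 71 of them were lower in the UVD group. Among the 102 members with the highest mean intensity it was 0.09. Of the 377 members detected on all 4 arrays, 181 had a higher and 185 a lower mean in the UVD group, with log2 differences from -1.22 to 1.63, a median of 0 and 6 differences of at least 1 in size. Among all 406 members, 26 were lower by at least 1 on the log2 scale, and UVD replicate 2 was at the floor for 24 of these.

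miR-7a-2-3p, from the 3′ arm of the hairpin printed above, had normalized intensities of 9.0 and 9.52 on the UVD arrays and 19.1 and 17.7 on the SO arrays. Both UVD arrays lay at about the level of the UVD group at 4 d (10.8 and 9.63), and both SO arrays lay above all others. At 4 h miR-7a-2-3p differed by -0.99 on the log2 scale (SE 0.080, limma adjusted p = 0.0119), and both of its probes were lower. These are dim spots, with scanner signals and errors of 9.42 ± 1.62 and 6.85 ± 1.78 on the UVD arrays and 16.5 ± 2.00 and 17.6 ± 2.17 on the SO arrays. The SO group at 4 d had 6.29 on both arrays, so that at 4 d the UVD group had the higher mean, by 0.69. The difference between the timepoints, -1.68, passed (limma adjusted p = 0.00751), and it was the only one of 422 tested (0.237%) to pass. No difference between timepoints passed with the mean processed signal, normexp, the authors' normalized values or an intensity trend, or without UVD replicate 2 at 4 h or SO replicate 2 at 4 d. Without UVD replicate 2 or without SO replicate 1 at 4 h, the 4 h value was -1.03 and -0.94 with a limma adjusted p of 0.0607 and 0.0592.

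The 5′ arm of this hairpin is miR-7a-5p, enriched in neurons and neuroendocrine cells and known for its many sites in the circular RNA Cdr1as. Its normalized intensity was 414 and 452 on the UVD arrays and 868 on both SO arrays. The other 6 arrays of the series spanned 318 to 452, so the sham arrays at 4 h stood above them. The log2 difference was -1.0 (limma adjusted p = 0.0866), which did not pass. miR-7b had 66.2 and 81.0 on the UVD arrays and 115 and 147 on the SO arrays, again without overlap (log2 difference -0.83, limma adjusted p = 0.247). miR-7a-1-3p, from the hairpin in Hnrnpk, had 70.0 and 71.8 against 71.8 and 74.5 and a log2 difference of -0.05, so the arrays of the groups touched at 71.8. Its value was 0.09 and 0.12 with scaling to the 75th percentile of detected and of all miRNAs. The 4 members of the miR-7 family had a median of -0.91 and all had a lower mean, beside 50.9% of all tested miRNAs with a lower mean.

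miR-344b-5p, of a family encoded on chromosome 1, was at the floor on both UVD arrays and at 4.37 and 3.12 on the SO arrays. It was also at the floor on all 4 arrays at 4 d, so it was detected on the SO arrays at 4 h alone. The fitted log2 difference of -1.88 (limma adjusted p = 0.0119) depends on the floor and was 0 at a floor of 5. Since the detection limit of UVD replicate 2, 6.15, lay above both SO values, no fold is given. Without UVD replicate 2 the limma adjusted p was 0.0607, and in the other 3 fits that each left out 1 array at 4 h the call was kept.
The opposite arm, miR-344b-3p, was detected on all 4 arrays, at 11.0 and 13.7 on the UVD arrays and 22.5 and 18.7 on the SO arrays. The SO arrays at 4 h again lay above the other 6 arrays (log2 difference -0.74, limma adjusted p = 0.16). miR-344a-3p, of the same family, had 99.7 and 107 against 131.5 and 120.2 (log2 difference -0.28, limma adjusted p = 0.219). For these 3 miRNAs both SO arrays at 4 h exceeded every other array, as they did for 77 of all 406 members. miR-344g, detected at 4 h on UVD replicate 1 alone (4.48), was not a member.

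**Figure D3:**
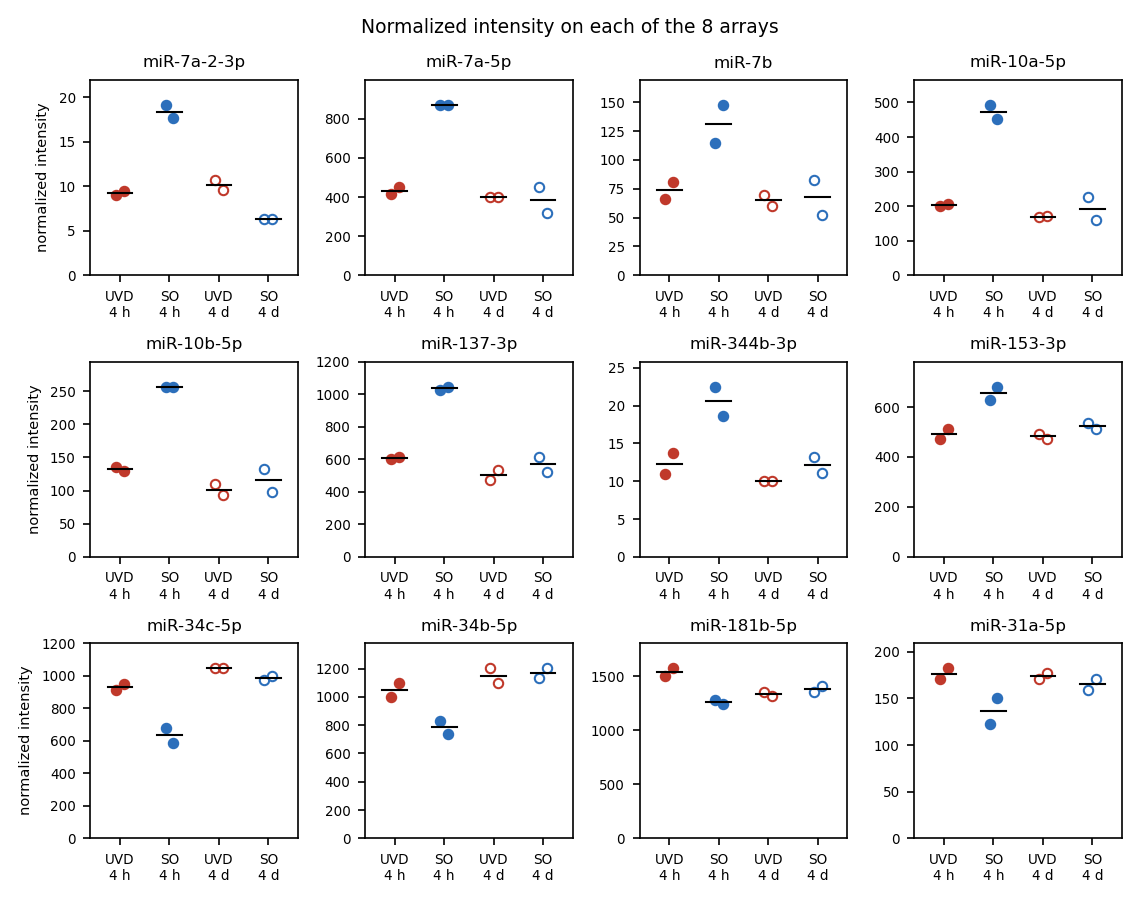
Normalized intensity (linear axis from 0) of 12 miRNAs on each of the 8 arrays, UVD in red and SO in blue, with filled points at 4 h, open points at 4 d and a black line at each mean of 2 arrays. In the first 8 panels the SO arrays at 4 h are the highest of the series, and for miR-34c-5p, miR-34b-5p, miR-181b-5p and miR-31a-5p they are the lowest.

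Among the other miRNAs with a lower mean in the UVD group that were detected on all 4 arrays, the smallest p-values belonged to miRNAs of neurons and of the Hox gene clusters, and none passed. miR-137-3p, which acts in neuronal differentiation and synaptic function, had 604 and 614 on the UVD arrays and 1030 and 1046 on the SO arrays. The UVD values were at the level of both groups at 4 d (474 to 614), and the log2 difference was -0.77 (SE 0.10, limma adjusted p = 0.0686). miR-153-3p, encoded within Ptprn2, had 473.5 and 510.2 against 629 and 681, again with the SO arrays at 4 h highest (log2 difference -0.41, limma adjusted p = 0.0913). Its other arm, miR-153-5p, was detected on neither UVD array and had 4.70 and 5.12 on the SO arrays (limma adjusted p = 0.247). The limit of UVD replicate 2, 6.15, lay above both SO values, so no fold is given. miR-153-5p was also measured on 1 array of each group at 4 d, at 2.15 after UVD and 4.01 after SO.

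miR-10a-5p, which is encoded in a Hox gene cluster and marks posterior segments of the embryo, had 200.0 and 205 on the UVD arrays and 491 and 452 on the SO arrays. The 4 arrays at 4 d had 159 to 226, so the UVD arrays lay among them and the SO arrays above. The log2 difference was -1.22 (SE 0.17, limma adjusted p = 0.0686). miR-10b-5p, within Hoxd4, had 135.5 and 129 against 256.5 on both SO arrays (log2 difference -0.95, limma adjusted p = 0.0866). For both miRNAs both probes were lower. Of 11 miRNAs of the Hox clusters on the array, only these 2 near-identical ones were members. The miR-196 family and miR-615 were not members.

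miR-203a-3p, an epithelial miRNA abundant in skin and named after its values were seen, had 1.45 on UVD replicate 1, the floor on replicate 2 and 4.14 and 3.83 on the SO arrays. The UVD arrays at 4 h were the lowest of the series, since the 4 arrays at 4 d had 2.30 to 5.12 (log2 difference -1.73, limma adjusted p = 0.0866). This difference also depends on the floor, and the SO values lay below the detection limit of UVD replicate 2.

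Of the 9 members with a limma adjusted p under 0.1, miR-34c-5p alone had a higher mean in the UVD group. miR-34b and miR-34c come from 1 transcript unit within Hoatz on chromosome 8 and act, with the miR-449 family, in the formation of motile cilia. miR-34c-5p had 912 and 949.5 on the UVD arrays and 681 and 590.0 on the SO arrays. The SO arrays were the lowest of the series, since the 4 arrays at 4 d had 976 to 1046 (log2 difference 0.55, SE 0.081, limma adjusted p = 0.0747). miR-34b-5p had 1000 and 1099 against 829.5 and 740.2 (log2 difference 0.42, limma adjusted p = 0.162). The star arms miR-34b-3p and miR-34c-3p differed by 0.47 and 0.53, so all 4 products of the locus at chr8:60306101-60306679 were higher on both UVD arrays. miR-449a-5p, which shares the seed GGCAGUG with miR-34b-5p and miR-34c-5p, was dim and had a lower mean, with 4.14 on UVD replicate 1, the floor on replicate 2 and 8.58 and 4.78 on the SO arrays. miR-34a-5p, with the same seed but expressed in many cell types, had the same normalized intensity on all 4 arrays.

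The ciliated cell list, whose miRNAs also come from the ependyma that lines the fourth ventricle beside the MVN, had 5 members among its 8 miRNAs on the array. Its median log2 difference was 0.47, with 4 members higher and 1 lower, beside a median of -0.02 over all members. Its summed level was 1967 and 2103 on the UVD arrays and 1369 to 1560 on the SO arrays, and miR-449a-3p and both arms of miR-449c were not members. Choroid plexus, another neighbor, had all 5 listed miRNAs as members, 4 with a higher and 1 with a lower mean, and a median of 0.05. Its bright marker miR-204-5p had 3957 on both UVD arrays and 3820 on both SO arrays (log2 difference 0.05). The member with the lower mean, miR-1298, differed by -0.47 without overlap, and both of its probes were lower. The part of ciliated cells in the difference was not tested.

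Muscle and sensory or epithelial miRNAs also had higher means in the UVD group. Of 15 muscle miRNAs on the array 7 were members, 6 with a higher mean and 5 higher without overlap, beside 46.2% and 22.5% of the tested miRNAs, with a median log2 difference of 0.49 and summed levels of 2236 to 2248 on the UVD arrays and 1702 to 2104 on the SO arrays. miR-133a-3p had 159 and 135.5 on the UVD arrays and 96.4 and 114 on the SO arrays (log2 difference 0.49, limma adjusted p = 0.247). miR-133b-3p had 1921 on both UVD arrays and 1464 and 1834 on the SO arrays (log2 difference 0.23, limma adjusted p = 0.592). Before normalization, the signals of both probes of each of these miRNAs overlapped between the groups. The study chose both miRNAs, and miR-31a-5p, on these arrays, so their direction is not independent evidence. The study's qRT-PCR on single animals found no significant difference between the groups for any of them. It did find significant differences, at multiple timepoints, for its candidates miR-218a-5p, miR-219a-5p and miR-221-3p. The paper describes miR-218a-5p and miR-219a-5p as increased after UVD. On these arrays at 4 h miR-219a-5p had a lower mean (log2 difference -0.10, limma adjusted p = 0.685). miR-1-3p had 25.3 and 20.9 against 13.09 and 17.9, and at 4 d 17.4 to 31.4 on the 4 arrays. The defining cardiac markers miR-208a-3p and both arms of miR-208b were not members. The other arm of the first, miR-208a-5p, was a member detected on all 4 arrays, with 25.8 and 30.0 on the UVD arrays and 28.6 and 27.1 on the SO arrays, and a log2 difference under 0.01. The skeletal and cardiac miRNA miR-499-5p differed by -0.04. The part of muscle tissue in these values was not tested.

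The sensory and epithelial list holds the miR-183, miR-96 and miR-182 cluster of hair cells and other sensory cells and the epithelial miR-200 family. Its 5 members, of 14 on the array, all had a higher mean in the UVD group, 4 of them without overlap, where 46.2% and 22.5% of the tested miRNAs did so, with a median of 0.56. Summed levels were 1218 and 1225 on the UVD arrays and 859 and 790.5 on the SO arrays. miR-96-5p had 740.2 and 768 against 510.2 on both SO arrays (log2 difference 0.56, limma adjusted p = 0.4), and miR-183-5p had 209 and 219 against 152 and 118. miR-141-3p had 22.5 and 14.0 against 9.22 and 3.55 (log2 difference 1.63, limma adjusted p = 0.256). Here the SO arrays at 4 h were not apart: at 4 d all 5 members had a lower mean after UVD, with a median of -0.71, and miR-96-5p ranged from 366 to 912. miR-200a, miR-200b, miR-200c and miR-429, the main epithelial markers, were not members. The part of such cells in the difference was not tested.

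The injury list, which holds miRNAs of hypoxia and reactive glia, had a higher mean in the UVD group for all 7 members, where 46.2% of the tested miRNAs had one, but its median was 0.10. miR-31a-5p, studied in injured and regenerating tissue, had 171 and 182 on the UVD arrays and 122 and 150.3 on the SO arrays, without overlap (log2 difference 0.38, limma adjusted p = 0.247). Before normalization, the signals of both its probes overlapped between the groups. The other arm, miR-31a-3p, had 56.0 and 60.2 against 37.9 and 50.7 (log2 difference 0.41), and both of its probes were higher. miR-21-5p, the best known injury miRNA, had 4964 and 4773 against 4773 on both SO arrays, and miR-210-3p, the hypoxia miRNA, differed by 0.04. Of 7 microglia and leukocyte miRNAs 5 had a higher mean, with a median of 0.13. Among these miR-155-5p, induced in activated macrophages, had 44.9 and 48.0 against 36.5 and 30.7 (log2 difference 0.47). miR-223-3p of myeloid cells had 107 and 74.5 against 69.5 and 65.8, and miR-142-3p of all blood cells differed by less than 0.01. Its other arm, miR-142-5p, went the other way, with 45.3 and 48.9 against 54.5 and 56.5, lower without overlap (log2 difference -0.24, limma adjusted p = 0.279). The 4 erythroid miRNAs had a median of -0.27, with summed levels of 944 and 740.0 on the UVD arrays and 934 to 955 on the SO arrays, and the low sum was that of UVD replicate 2.

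Neuron-enriched miRNAs had no common direction. Of 23 members, 9 had a higher and 14 a lower mean, with a median of -0.05 that lay above that of all members without UVD replicate 2 or without SO replicate 1 at 4 h. Lower without overlap were 8 members, those of miR-7, miR-137, miR-153 and miR-383, beside 28.4% of the tested miRNAs. Higher without overlap were 2, beside 22.5%. For all 8 lower ones the SO arrays at 4 h exceeded every other array, as they did for 77 of the 406 members. Of the 8, miR-153-5p and miR-383-3p had SO values below 6.15, the detection limit of UVD replicate 2. Among the 21 members of the list detected on all 4 arrays, 6 were lower and 2 higher without overlap. The bright members of the list differed little: miR-124-3p had 23570 and 21950 against 26530 and 21950 (log2 difference -0.09), and both arms of miR-9a and miR-128-3p lay between -0.03 and 0.11. The summed level of the list was 80078 to 83060 on the UVD arrays and 80689 to 84998 on the SO arrays. miR-218a-5p, a member of the list and a candidate of the study, had 4505 and 3820 against 3257 and 3957, with overlap (log2 difference 0.21, limma adjusted p = 0.474). Of 6 miRNAs linked to neuronal activity 4 had a lower mean, and the median was -0.13. miR-132-3p, induced by CREB in active neurons, had 1571 and 1503 on the UVD arrays and 1921 and 1709 on the SO arrays, without overlap (log2 difference -0.24), while its cluster partner miR-212-3p had 1161 and 1000 in both groups. The star arm miR-212-5p had 6.29 and 9.38 against 10.6 and 11.0. The 4 oligodendrocyte miRNAs had a median of 0.02 and the 5 vessel miRNAs one of -0.05, and the side of both relative to all members turned with the signal or scaling used. Medians of the ciliated cell, muscle, sensory and epithelial, Hox cluster, miR-7 and miR-344 lists kept their sign in each of 29 alternatives.

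**Figure D4:**
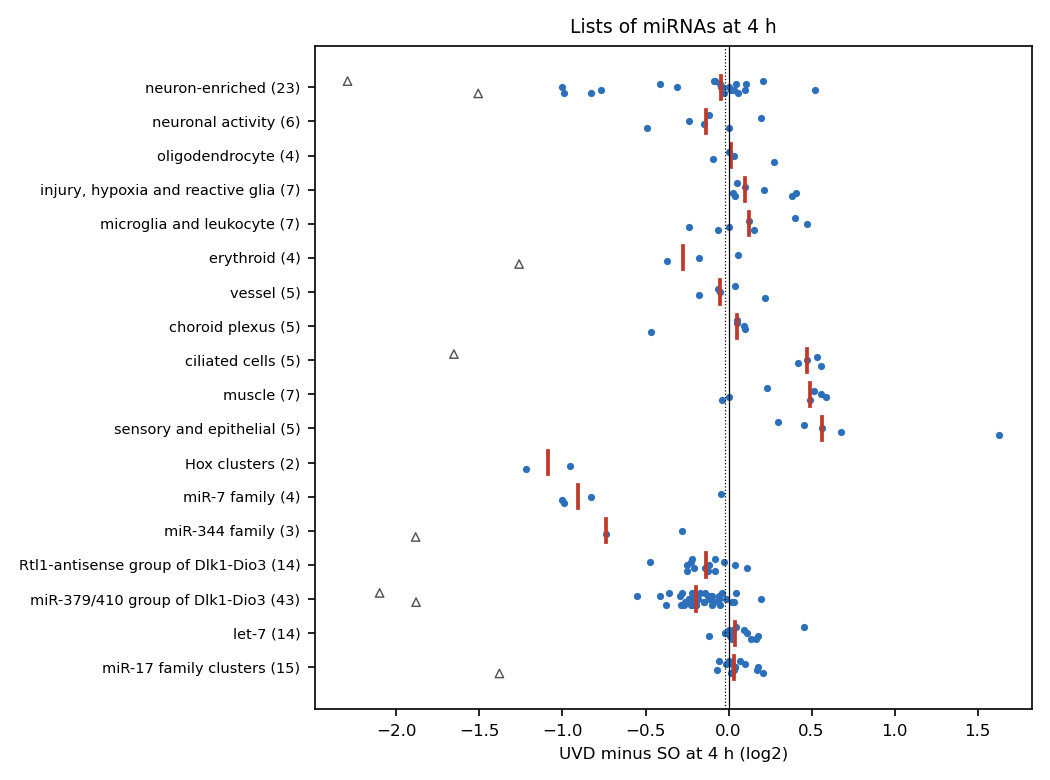
Log2 difference of the UVD group from the SO group at 4 h for the members of 18 lists, with the number of members in brackets. Each point is 1 miRNA (triangles were not detected on all 4 arrays), red bars are list medians and the dotted line is the median of all 406 members; the lists of ciliated cells, muscle and sensory cells lie to the right, and those of the Hox clusters, miR-7 and miR-344 to the left.

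The imprinted Dlk1-Dio3 domain on chromosome 6, whose miRNAs are made from the maternal chromosome and are abundant in brain, had lower means in most of its members. Of its 57 members 51 had a lower mean after UVD and 39 were lower without overlap, beside 50.9% and 28.4% of the tested miRNAs, but no member passed. The median log2 difference was -0.19, beside -0.02 for all members. Summed levels were 33775 and 33028 on the UVD arrays and 38449 and 36445 on the SO arrays, with no overlap. For 37 of the 57 both SO arrays at 4 h lay above all of the other 6 arrays, beside 77 of all 406 members. At 4 d 44 of the 57 had a lower mean after UVD with a median of -0.07, where 56.4% of those tested had a lower mean. The domain median ranged from -0.31 with no scaling to -0.04 with the 75th percentile of all miRNAs and stayed below that of all members in every one of the 29 alternatives.

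Within the domain, the 14 members antisense to or beside Rtl1 had a median of -0.13 and the 43 members of the cluster from miR-379 to miR-410 one of -0.20. miR-376b-5p had the smallest p of the domain, with 120.2 and 133 on the UVD arrays and 150.3 and 157 on the SO arrays (log2 difference -0.28, SE 0.069, limma adjusted p = 0.219). miR-411-5p had 339 and 334 against 407 and 401.5 (log2 difference -0.26). For both miRNAs the sham arrays at 4 h were highest. miR-136-3p, within Rtl1 and antisense to it, had 1030 and 1046 against 1201 on both SO arrays (log2 difference -0.21). The bright miR-127-3p, of the same group, had 7029 and 6745 on the UVD arrays. The 6 members with a higher mean were miR-431, miR-370-3p, miR-134-5p, miR-329-3p, miR-496-3p and miR-379-3p, and 3 of these did not overlap. By position on GRCr8, the 42 members between chr6:134543460 and chr6:134579828 held 38 lower means, 29 of these without overlap, read against the same 50.9% and 28.4%.

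**Figure D5:**
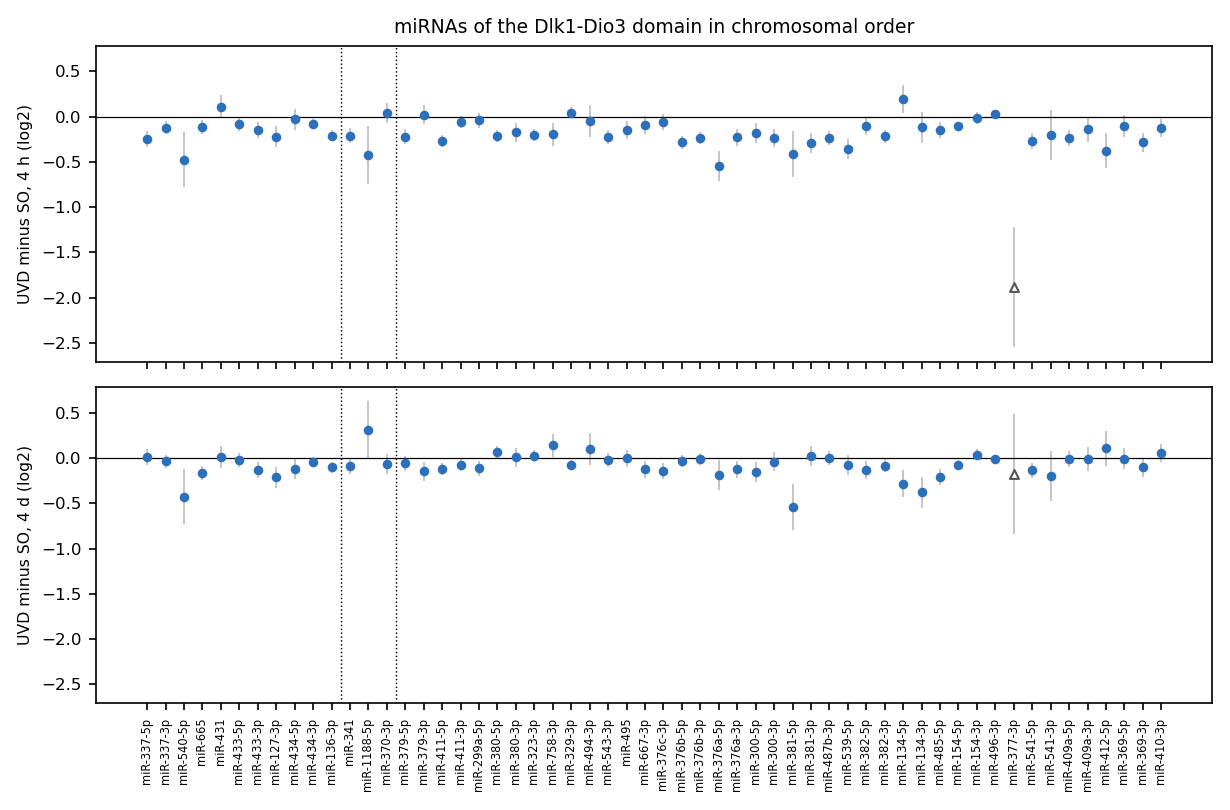
Log2 difference of the UVD group from the SO group at 4 h (top) and 4 d (bottom) for 56 miRNAs on the plus strand of the Dlk1-Dio3 domain, in chromosomal order, with standard errors. They include miR-341 and miR-1188-5p, which are not among the 57 listed members, and leave out miR-299b-3p, miR-136-5p and miR-127-5p, which are; dotted lines separate stretches more than 10 kb apart and the triangle is miR-377-3p, not detected on all 4 arrays at 4 h. At 4 h 50 of the 56 lie below 0, and at 4 d 43 do.

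Some other genomic clusters also had differences of one sign. Members within 10 kb of each other formed 28 clusters of at least 3, and 8 of these had a difference of the same sign for every member. Each of the 8 had only 3 or 4 members, often with both arms of a hairpin. Of the tested miRNAs, 46.2% had a higher and 50.9% a lower mean, and how many such clusters would arise anyway was not tested. The clusters of miR-34b and miR-34c (median 0.50), of miR-183, miR-96 and miR-182 at chr4:59752249-59756127 (0.51), of miR-1 and miR-133a at chr18:2157886-2160360 (0.51) and of miR-30c and miR-30e in Nfyc at chr5:139634467-139637525 (0.14) were higher throughout. Of these 4 clusters the last is bright: miR-30e-5p had 3329 and 3257 on the UVD arrays and 3011 and 2949 on the SO arrays (log2 difference 0.14, limma adjusted p = 0.247), and -0.04 with no scaling. The cluster of miR-199a and miR-214 at chr13:77116255-77121733, linked to mesenchymal cells, was lower throughout, with miR-199a-5p at 10.5 and 11.1 against 20.4 and 15.3 (log2 difference -0.70). The cluster of miR-25, miR-93 and miR-106b (median 0.07) was also higher throughout. Those of miR-144 and miR-451 (-0.37) and of miR-23a, miR-27a and miR-24 (-0.05) were lower throughout, the last with no member without overlap. Both arms were measured for 113 precursors, and 64 had differences of the same sign. Both arms lay outside the other group's range in the same direction for 28 and in opposite directions for 1, miR-582. Of single tested miRNAs, 22.5% were higher and 28.4% lower without overlap.

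miRNAs that share a seed could be compared in 36 families covering 96 members. The seed GGAAUGU of miR-1-3p, miR-1b and miR-206-3p had 3 of 3 members higher without overlap (median 0.58), beside 22.5% of the tested miRNAs. miR-1-3p and miR-206-3p are identical at 19 of 22 bases, so their values are not counted as independent. Neither passed, with a limma adjusted p of 0.37 and 0.502. The AGCAGCA family of miR-15b, miR-16, miR-195, miR-322 and miR-497, linked to the cell cycle, had all 5 means higher but a median of 0.14, and the AAAGUGC family of miR-17 all 5 with a median of 0.07. The let-7 seed GAGGUAG had 7 of 9 means higher with a median of 0.02. Several seeds were lower in every member, among them those of miR-7a-5p and miR-7b (median -0.92) and of miR-221-3p and miR-222-3p (-0.28). miR-221-3p and miR-222-3p share the seed GCUACAU and repress the cell cycle inhibitor p27. miR-222-3p had 69.5 and 75.8 on the UVD arrays and 95.7 and 86.1 on the SO arrays, and miR-221-3p had 87.4 and 101 against 107 and 115. For neither miRNA did the groups overlap, where 28.4% of the tested miRNAs were lower without overlap, and the log2 differences were -0.32 and -0.24.

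Of single miRNAs outside these groups, miR-181b-5p, of a family found in brain and lymphocytes, had the smallest p among higher members after miR-34c-5p. It had 1503 and 1571 on the UVD arrays and 1275 and 1242 on the SO arrays (log2 difference 0.29, SE 0.056, limma adjusted p = 0.116). Before normalization, the signals of both its probes overlapped between the groups. The SO arrays at 4 h were below all others, which at 4 d had 1314 to 1408. Its near relatives miR-181a-5p and miR-181c-5p had the same values in both groups. Larger but noisier were miR-327, at 32.1 and 22.1 against 9.97 and 13.4 (log2 difference 1.20), and miR-3573-3p, at 58.4 and 41.1 against 24.4 and 23.9 (1.02), with a limma adjusted p of 0.247 for both. miR-3558-3p was at 17.4 and 15.7 on the UVD arrays and was detected on 1 SO array, at 11.1. Among the 12 higher and the 12 lower members with the smallest p that were detected on all 4 arrays, all 24 had arrays without overlap. The share over the tested miRNAs was 50.9%. In 11 and 12 of them respectively the SO arrays at 4 h lay outside the range of the other 6 arrays, beside 31.8% of all members. The 24 were picked by p from the same values, so both counts follow in part from that choice.

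The brightest miRNAs had small differences. The 5 members with the highest normalized intensity, miR-29b-3p, let-7c-5p, miR-125b-5p, miR-219a-5p and miR-29a-3p, held 23.8% of the summed level of all members, and the log2 differences of the last 4 lay between -0.10 and 0.11. miR-29b-3p was the brightest on each array, so quantile normalization gave it 33710 on all 4 and fixed its difference at 0. With no scaling it was -0.25, and both of its probes were lower on both UVD arrays. let-7c-5p had 30370 on both UVD arrays and 26110 and 30370 on the SO arrays. The signs for miR-125b-5p, miR-219a-5p and miR-29a-3p, all negative, turned with scaling to a 75th percentile.

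The differences at 4 h and at 4 d rest on different arrays that were normalized together. Of the members lower in the UVD group at 4 h, 137 were also lower at 4 d and 72 were higher. Of those higher at 4 h, 88 were also higher at 4 d and 91 were lower. Across the 406 miRNAs, Spearman's rho between both differences was 0.11, given as a description, since miRNAs are not independent replicates. At 4 d 114 of the 406 members did not overlap between the groups, beside 124 of the 422 tested miRNAs (29.4%). Without overlap at both timepoints were 37 members in the same direction and 22 in opposite directions. The difference between the timepoints had an unadjusted p under 0.05 for 36 members.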

How the data were processed

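RNA of the left MVN was measured on 8 one-color Agilent rat miRNA arrays. The authors deposited Feature Extraction scanner files with background-subtracted spot intensity and a total gene signal per miRNA, and their own quantile normalized intensity values on a linear scale. Here the total gene signal of each miRNA, without control spots, was quantile normalized over the 8 arrays, values under 1 were set to 1, and log2 was taken. The 422 of 758 miRNAs that both arrays of some group (of 4) detected entered a model of the 4 group means in limma 3.58.1 (R 4.3.3), by lmFit and eBayes. P-values were adjusted by Benjamini-Hochberg over all 422, and 0.05 was the threshold. The spread of all 4 groups enters each test. Deposited columns of intensity other than the total gene signal served in alternatives only. The model was tested on simulated data. The number of arrays limits the precision of all values.

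The members and lists were chosen with earlier results of these data known. Named miRNAs are those that passed, the 12 higher and 12 lower with the smallest p among members detected on all 4 arrays, those detected in 1 group only, the study's 9 candidates, the 5 brightest, up to 3 per list with the smallest p below 0.15 (the limit on p in the study's selection, added here after the naming rule was fixed), and arms or relatives of these. Other list, cluster and seed members are named as examples chosen after their values were seen. Lists are described by counts and medians, with no test. Sequences and coordinates come from RefSeq on GRCr8. For a miRNA undetected in 1 group, the lowest detected value of each array was taken as its detection limit, and no fold is given. Normexp used the median spot signal, with an offset of 50.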

Additional observations from a re-analysis of the deposited data

Results flagged for a closer look

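miR-7a-2-3p differed between UVD and SO in opposite directions at the 2 timepoints. Its log2 difference was -0.99 at 4 h and 0.69 at 4 d, and the difference between these, -1.68, passed over all 422 miRNAs tested (limma adjusted p = 0.00751). No such difference passed in 4 of the alternatives on signal and variance, nor without UVD replicate 2 at 4 h or SO replicate 2 at 4 d. After UVD and SO the means were 9.26 and 18.4 at 4 h, and 10.2 and 6.29 at 4 d, so the SO group varied more between the timepoints than the UVD group did.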

How the results depend on the processing

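The count of miRNAs called between the groups at 4 h was 2. It was 1 with either 75th percentile scaling and with no scaling, 7 with quantile normalization over the 4 h arrays alone, 5 with the mean processed spot signal, 6 with a pseudocount of 16, 9 in a fit of the 4 h arrays alone, 8 with an intensity trend, 7 with array weights, and 0 by the methods' t-test after Benjamini-Hochberg adjustment, which had 56 miRNAs at an unadjusted p under 0.05. With normexp 2 miRNAs were called and with the authors' normalized values 3. Neither miR-7a-2-3p (limma adjusted p = 0.157 and 0.12) nor miR-344b-5p (limma adjusted p = 0.291 and 0.187) was among these. Leaving out 1 array gave 1 to 10 calls, with 1 without UVD replicate 2 and 10 without UVD replicate 1 at 4 h, 4 without SO replicate 2 at 4 h, 1 without either UVD array and 6 without either SO array at 4 d. The count for the difference between timepoints was 1. It was 2 with either 75th percentile scaling, no scaling and a floor of 5, 3 with cyclic loess, a floor of 0.1 and no filter, 0 with the processed signal, normexp, the authors' normalized values and the intensity trend, and 0 to 7 when 1 array was left out. In 7 of 28 alternatives a miRNA was called higher in the UVD group.

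For miR-7a-2-3p, 8 of 28 alternatives lost the call (log2 difference -1.08 to -0.13, limma adjusted p 0.00853 to 0.306), and for miR-344b-5p 12 of 27 did, with a value of 0 at a floor of 5. miR-137-3p and miR-10a-5p passed in 11 of 28, miR-10b-5p and miR-7a-5p in 7 and miR-34c-5p in 3; the cause was not tested. Of 69 named miRNAs, 61 kept their direction in every alternative run. With no scaling, miR-30e-5p was -0.044, miR-99a-3p -0.037 and miR-27b-3p -0.054. With the 75th percentile of detected and of all miRNAs, miR-219a-5p was 0.073 and 0.099, miR-29a-3p 0.11 and 0.14, miR-7a-1-3p 0.093 and 0.12, and miR-125b-5p 0.16 and 0.19. Leaving out 1 array gave -0.095 to 0.031 for miR-125b-5p, positive without SO replicate 1 at 4 h, and -0.067 to 0.17 for miR-211-5p, negative without SO replicate 1 or UVD replicate 2 at 4 h. The count of members without overlap (from 215) and of list medians above that of all members (15 to 18 of 30, against 16) stayed within 1.5 times.

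With the replicate number as a block, 2 miRNAs were called, the same ones, at a limma adjusted p of 0.0457, and 1 for the difference between timepoints. Same-numbered arrays correlated at -0.25 to 0.19 over the pairs of groups, and the labels give no shared origin, so the numbers do not pair the arrays. The numbers are those of the sample titles; the source names give 1 to every array at 4 h and 2 to every array at 4 d and so tell no replicates apart. Crossing the numbers of the SO arrays at 4 h, an alternative chosen after seeing the data, gave 0 calls in both. Medians over members detected on all 4 arrays were also added after seeing the data. Signals near the floor limit the calls: UVD replicate 2 had no detected value under 6.15.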
